A study of Mus musculus with 9 samples.

Results

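The chaperonin genes were followed across MC38 cells given copper and cystine in 2 forms. They were the 8 genes of the cytosolic chaperonin TRiC (Tcp1, Cct2, Cct3, Cct4, Cct5, Cct6a, Cct7 and Cct8) and the 2 genes of the mitochondrial chaperonin, Hspd1 for HSP60 and Hspe1 for its lid HSP10. These 10 genes were taken by their symbols from the 16509 genes of the deposited table, and all 10 passed the filter on low counts that left 11949 genes for testing. MC38 is a mouse colon carcinoma line. The 9 RNA-seq libraries held 3 replicates each of Ctrl cells (labelled DMSO, whereas the study's methods name PBS), of Cu-Cys cells, treated with the copper-cystine copolymer, and of Cadict cells. Cadict is a nanoparticle made of the same copper and cystine that also carries glucose oxidase and the EGFR-binding peptide GE11, so the 2 treatments differ in more than 1 component. The labels give neither dose nor duration for these libraries, and do not say whether the replicates were separate cultures. The study's methods speak of biological replicates for its experiments in general, without describing how these libraries were grown, so the p-values measure the spread between these samples.

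Chaperonins are barrels that enclose an unfolded protein and let it fold apart from the crowded cell. TRiC, also called CCT, is built of 2 stacked rings, each holding a copy of every one of its 8 related subunits, and it folds actin and tubulin, which the prefoldin complex hands to it. In mitochondria, HSP60 and HSP10 fold proteins that have been imported from the cytosol, after the mitochondrial HSP70 has pulled them in. Heat shock factors, which bind repeats of a short unit read as GAA or, on the other strand, TTC, drive many chaperone genes in stressed cells.

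Hspd1 and Hspe1 lie head to head on mouse chromosome 1 and share 1 stretch of DNA between their starts. The windows of 300 bases around annotated starts (250 before and 50 after) that RefSeq gives on GRCm38.p6 were searched for alternating heat shock units at a step of 5 bases. Of the 10 genes, 9 had at least 1 window, 12 windows in all, and Cct4 had none. The 30-base sequences below are shown because the stretch that Hspe1 and Hspd1 share holds 4 such units in a row. It is the same DNA read from each gene's own strand, at chr1:55088053-55088082, with its first unit 89 bases before the Hspe1 start and 144 bases before the Hspd1 start at 55087932. A second Hspd1 start in RefSeq lies at 55088243, upstream of this stretch, and its own window does not reach the stretch. Capitals mark the matched units.
Hspe1, + strand: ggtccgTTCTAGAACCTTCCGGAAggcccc
Hspd1, − strand: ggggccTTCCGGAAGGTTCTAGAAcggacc

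Among the TRiC genes, 3 windows held 2 adjoining units and none held 3. They are shown to set them beside the longer run above. The Cct2 match (chr10:117063399-117063428, − strand) began 42 bases before a start and the Cct5 match (chr15:31601862-31601891, − strand) 34 bases before one, whereas the Cct6a match (chr5:129787369-129787398, + strand) began 24 bases after the start.
Cct2: ccccaagtgaaGAAGTTTCtagcaggacct
Cct5: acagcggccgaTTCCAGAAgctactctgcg
Cct6a: gcgtaagacttTTCGAGAAgaccccgcaga

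A run of 4 units (GAANNTTCNNGAANNTTC or TTCNNGAANNTTCNNGAA) occurred in 8 of 32851 windows, or 0.0244%, and 2 of the 8 were those of Hspd1 and Hspe1. The other 6 windows belonged to Arpc2, Chordc1, Fam149a, Gm38873, Gm41230 and Kctd18, of which Chordc1 is a co-chaperone of HSP90. A run of 3 units (GAANNTTCNNGAA or TTCNNGAANNTTC) was in 0.603% of all windows, and 2 units were in 7.86% as GAANNTTC and in 8.52% as TTCNNGAA. Each shorter pattern is also contained in the longer ones. The 2 matches to the longer runs among the chaperonin windows are the same stretch of DNA. Other patterns were also searched on both strands. The GC box GGGCGG was in 11 of the 12 windows, against 35.7% of all windows. The CCAAT box was in 5 (37.4% of all), the metal response pattern TGCGCNC or TGCACNC in 6 (25.7%), the antioxidant response pattern TGACNNNGC in 3 (12.4%) and the C/EBP-ATF pattern TGATGNAA in 0 (3.97%). A window of Hspd1 and that of Hspe1 cover nearly the same DNA, so sites there count for both. By gene, the GC box was in all 9 and the metal response pattern in 5. The 12 windows were 47.3 to 73.3% G or C, and the windows set beside them were not matched for this. A match describes the letters in the window and no binding was measured here. Cct7, Cct3, Cct8 and Tcp1, without 2 adjoining units, had log2 fold changes of 2.40, 2.33, 1.89 and 1.17 in Cadict against Ctrl. Cct2, Cct6a and Cct5, with 2 units, were at 2.26, 1.78 and 1.50, and Hspd1 was at 2.47 and Hspe1 at 3.78. A link between the units and these changes was not tested.

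In untreated cells the chaperonin genes were abundant, and the TRiC genes stood close together. On the TPM scale, which divides by transcript length and so allows genes to be compared, Hspd1 was the highest in Ctrl at 1582.5 ± 15.9 (SD, n = 3), 98th of 16509 genes. Hspe1 followed at 662 ± 15.6. The TRiC genes ran from Cct5 at 608 ± 6.63 through Tcp1 at 580.2 ± 9.76, Cct3 at 569.9 ± 7.52, Cct6a at 564 ± 8.70, Cct8 at 496 ± 16.0, Cct2 at 468 ± 7.01 and Cct7 at 457 ± 11.8 to Cct4 at 407 ± 6.98. The libraries of Tcp1 and Cct3, of Cct3 and Cct6a, and of Cct2 and Cct7 overlapped, and the other neighbours in that order did not. The highest subunit was 1.49 ± 0.037 times the lowest within a library. Together the 10 genes took 0.661% ± 0.0039 of all counts in Ctrl, 0.839% ± 0.010 in Cu-Cys and 1.55% ± 0.022 in Cadict.

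Library totals were even, between 17905769 and 18293060 expected counts, but their make-up was not. The 100 most abundant genes took 17.2 to 17.4% of the counts in Ctrl, 17.9 to 18.2% in Cu-Cys and 29.8 to 31.1% in Cadict, and the TMM factors, which set libraries on a common scale, were 1.26 to 1.27, 1.21 and 0.640 to 0.665. A change in Cadict therefore depends on the scale, and each is given below on TMM-scaled counts and, where it turns, on the others. Of 8 markers of colon epithelium 6 were in the table given, and only Cdh1 and Krt19 reached 1 TPM in every library. Epcam was at a mean of 0 TPM in Ctrl and at 0.057 in Cadict, and the summed markers were 4.22 to 6.24 TPM in Ctrl, 3.50 to 3.95 in Cu-Cys and 11.5 to 13.2 in Cadict. The 4 fibroblast markers, led by Col1a2, summed to 261 to 283 TPM in Ctrl, 132 to 138 in Cu-Cys and 21.3 to 26.7 in Cadict, while the leukocyte markers stayed at or below 0.08 TPM and the endothelial ones at or below 1.20 TPM. Their part in the chaperonin results was not tested.

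The whole chaperonin set was higher in Cadict than in Ctrl on TMM-scaled counts. All 10 genes rose at an adjusted p of at most 0.05 (edgeR's quasi-likelihood test, Benjamini-Hochberg over 11949 genes), against 40.6% of all tested genes. All 10 also passed the stricter threshold, a fold change of 2 or more with an adjusted p no higher than 0.001, and such genes are referred to as called, against 20.7% of all genes. That count depends on the scale: 5 of the 10 were called with library totals or FPKM and 4 with TPM. The 20.7% holds for TMM scaling alone, and the share of all tested genes called higher on the other scales was not computed. How the called genes split by direction is a different measure, not to be set against the 20.7%. Of all genes called, 43.3% were higher with TMM, 11.9% with library totals, 11.0% with FPKM and 5.67% with TPM. In all 10 the Cadict libraries lay above the Ctrl libraries without overlap, as they did in 40.3% of all genes. The median log2 fold change of the 8 TRiC genes was 1.84, from 1.17 to 2.40, beside −0.13 over all genes. Other abundant genes rose too: among the 349 other genes with a Ctrl level of at least 407 TPM, that of Cct4, the median was 1.40 and 65.6% were called higher.

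**Figure D1:**
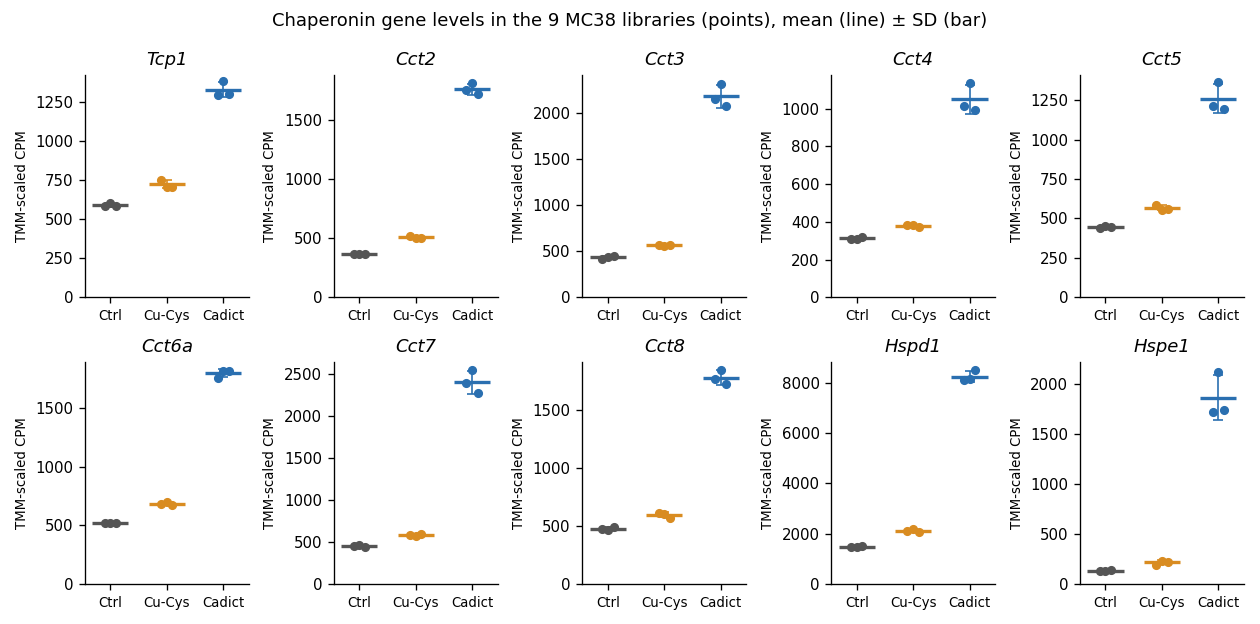
Levels of the 10 chaperonin genes in each of the 9 libraries as TMM-scaled CPM (vertical axis from 0, a different range in each panel), by group on the horizontal axis. Points are libraries, lines are means and bars are SD, and in every panel the Cadict points lie above the Cu-Cys points, which lie above the Ctrl points.

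Hspe1, the HSP10 lid, changed the most. It was at 133, 134 and 139 TMM-scaled CPM (counts set to a common library total) in the Ctrl libraries, at 196, 235 and 219 in Cu-Cys and at 1719.9, 2121 and 1739.7 in Cadict. The 3 groups did not overlap, and the Cadict libraries spread the widest. Its log2 fold change in Cadict against Ctrl was 3.78 ± 0.088 (SE), a 13.7-fold rise (adjusted p = 3.7e-15, edgeR), which ranked 185th of 11949 genes. Hspe1 is a short transcript, with an effective length of 438 bases as computed from the deposited counts and FPKM. Genes of up to 1549.7 bases, the shortest of 4 equal groups, had a median log2 fold change of 0.47 and 33.2% of them were called higher with TMM scaling.

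Hspd1, the HSP60 barrel, was at 1471, 1480.3 and 1507 CPM in Ctrl, at 2121, 2175 and 2068 in Cu-Cys and at 8104, 8127 and 8483 in Cadict. Again no library of a group reached the next. The log2 fold change in Cadict against Ctrl was 2.47 ± 0.047 (adjusted p = 5.5e-16, edgeR). Genes of its length group (1550.3 to 2619 bases, which also holds the 8 TRiC genes) had a median of −0.20, and 20.6% of them were called higher.

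Within TRiC the rise was uneven. Cct7 rose the most, by 2.40 ± 0.052 on the log2 scale, from 453, 463 and 447 CPM in Ctrl to 2383, 2538 and 2267 in Cadict. Cct3 rose by 2.33 ± 0.053, from 419.99, 439 and 445 CPM to 2148, 2319.7 and 2080.2. Cct2 rose by 2.26 ± 0.047, from 366, 365 and 369.9 CPM to 1754, 1809 and 1715. These 3 subunits stood apart from the rest by more than their errors. Cct8, Cct6a and Cct4 were in between. Cct8 rose by 1.89 ± 0.052, from 477, 465 and 497 CPM to 1772, 1852 and 1725. Cct6a rose by 1.78 ± 0.045, from 520.1, 521 and 522 CPM to 1753, 1814 and 1813. Cct4, the least abundant of them in Ctrl, rose by 1.75 ± 0.056, from 309, 308 and 319.65 CPM to 1016, 1137.5 and 992. The remaining 2 subunits rose by less. Cct5 rose by 1.50 ± 0.056, from 440.45, 451 and 446 CPM to 1215, 1364 and 1194. Tcp1, the subunit after which the complex was first named, rose the least, by 1.17 ± 0.049, from 581, 600.2 and 585 CPM to 1294, 1381 and 1300.4. The adjusted p-values of the 8 genes (edgeR) lay between 1.2e-15 for Cct2 and 2.7e-12 for Tcp1.

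**Figure D2:**
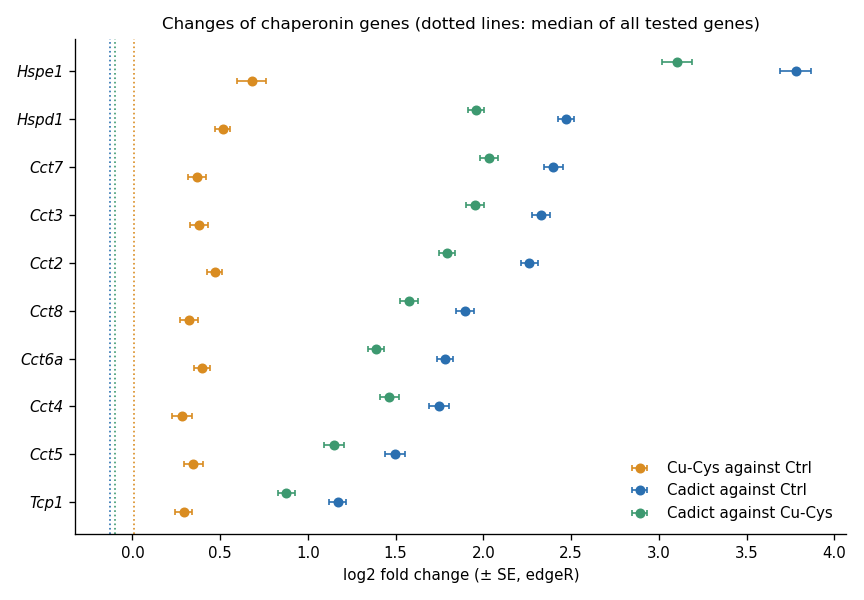
Log2 fold changes (horizontal axis, ± SE, edgeR on TMM-scaled counts) of the 10 chaperonin genes (vertical axis, ordered by Cadict against Ctrl) in the 3 comparisons, with dotted lines at the median of all tested genes. Every point lies to the right of the dotted line of its comparison, from Tcp1 at 1.17 to Hspe1 at 3.78 in Cadict against Ctrl.

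Tcp1 was the exception to this direction on other scales. Its expected counts were 13438, 13865 and 13426 in Ctrl and 15224, 15848 and 15487 in Cadict, so that without TMM factors the log2 change was 0.22. On the TPM scale Tcp1 was lower in Cadict, at 528 ± 34.1 against 580.2 ± 9.76, and the libraries did not overlap (log2 change −0.14 on the TPM + 1 scale, adjusted p = 0.034, limma). The median of all genes moved to −1.08 with library totals and to −1.13 on the TPM scale, so Tcp1 stayed above the median gene there. The other 9 genes were higher in Cadict than in Ctrl on all 5 scales compared, and all 10 lay above the median gene on each. With library totals the TRiC median was 0.88, Hspd1 was at 1.52 and Hspe1 at 2.83, and on the TPM scale they were at 0.53, 1.16 and 2.43.

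**Figure D3:**
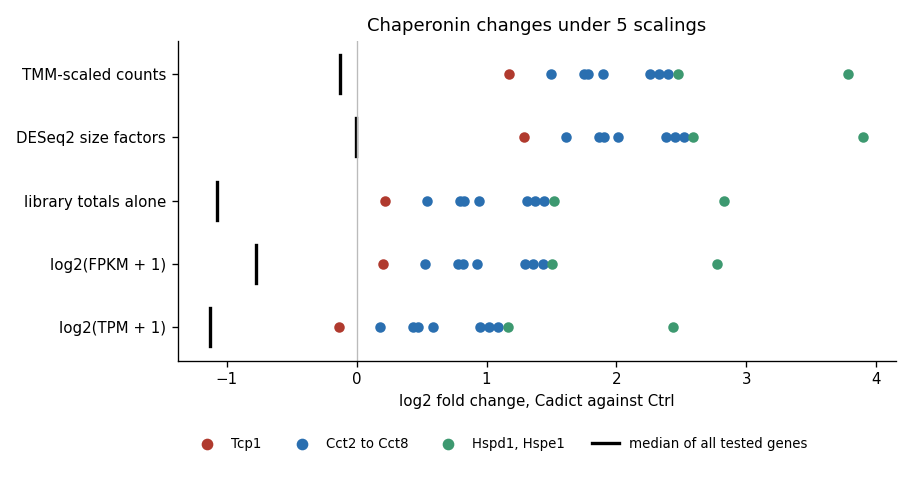
Log2 fold change in Cadict against Ctrl (horizontal axis) of each chaperonin gene (points, Tcp1 in red, the other TRiC genes in blue, Hspd1 and Hspe1 in green) under 5 scales (rows), with a black bar at the median of all tested genes. The points move with the scale together with the bar, and Tcp1 crosses 0 only on the log2(TPM + 1) row, where it was at −0.14.

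In Cu-Cys the same 10 genes were higher than in Ctrl by smaller folds. All 10 rose over Ctrl at an adjusted p of at most 0.05, against 22.6% of all genes, and in all 10 the libraries did not overlap, as in 31.4% of all genes. None was called, as no fold reached 2, and 0.167% of all genes were called higher. The largest adjusted p of the 10 was 7.2e-04, for Cct4 (edgeR). The TRiC median was 0.36 on the log2 scale, from 0.28 to 0.47, beside 0.01 over all genes and 0.20 over the 349 other abundant genes. Hspe1 was again the highest at 0.68 ± 0.081 (adjusted p = 1.2e-05, edgeR), a 1.60-fold rise. Hspd1 was at 0.51 ± 0.045. Cct2, the highest of TRiC at 0.47 ± 0.045, stood at 518, 498 and 506 CPM in the Cu-Cys libraries. Cct6a followed at 0.40 ± 0.044 (679.97, 701 and 676 CPM). Cct3, Cct7 and Cct5 lay close together at 0.38 ± 0.051, 0.37 ± 0.050 and 0.35 ± 0.055, which differ by less than their errors. Cct8 was at 0.32 ± 0.050. The lowest were Tcp1 at 0.29 ± 0.048 (751, 706 and 707 CPM) and Cct4 at 0.28 ± 0.054 (381, 384 and 375 CPM). The 3 subunits that led in Cadict were not all at the top here, with Cct7 and Cct3 below Cct6a by less than their errors. All 10 also had higher mean TPM in Cu-Cys than in Ctrl, without overlap, although for Tcp1 the limma test on that scale missed the threshold (adjusted p = 0.056).

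Cadict was also set against Cu-Cys directly, which compares the nanoparticle with the copolymer that lacks glucose oxidase and the peptide. All 10 genes rose at an adjusted p of at most 0.05 (40.3% of all genes), 9 were called higher (18.6%) and none overlapped (39.6%). With library totals or FPKM 4 were called higher, and with TPM 1. The 18.6% holds for TMM scaling alone, and the share of all tested genes called higher on the other scales was not computed. The split of the called genes by direction is a different measure. Of all genes called, 44.1% were higher with TMM, 10.8% with library totals, 9.50% with FPKM and 5.84% with TPM. The exception at the stricter threshold with TMM was Tcp1, whose 1.84-fold rise was under the limit (log2 fold change 0.88 ± 0.049). Hspe1 was 8.58-fold higher in Cadict, Cct7 4.09-fold and Hspd1 3.88-fold. The abundant genes beside them had a median log2 fold change of 1.16, and 60.5% of them were called higher. The direction turned for Tcp1 with library totals (−0.0088), with FPKM (−0.016) and on the TPM scale (−0.29, adjusted p = 3.1e-04, limma), where Cct5 was at −0.02 (adjusted p = 0.72).

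The make-up of the TRiC transcripts shifted in Cadict. Because the complex takes its 8 subunits in equal numbers, each gene's share of the summed TRiC TPM was computed within each library, where it does not depend on how libraries are scaled. The sum itself was 4150.4 ± 31.4 TPM in Ctrl, 4813 ± 68.6 in Cu-Cys and 6335 ± 334 in Cadict. Tcp1 fell from 13.9, 14.2 and 13.8% of this sum in the Ctrl libraries to 8.26, 8.26 and 8.46% in Cadict. Cct5 went from 14.6, 14.8 and 14.5% to 10.7, 11.3 and 10.7%. Both were in the upper part of the Ctrl order, and in Cadict Tcp1 was the lowest subunit in all 3 libraries. The gains lay elsewhere. Cct3 went from 13.7% ± 0.28 to 18.2% ± 0.22, Cct7 from 11.0% ± 0.25 to 15.4% ± 0.26 and Cct2 from 11.3% ± 0.090 to 14.3% ± 0.27. Cct6a (13.6% ± 0.11 to 12.4% ± 0.53) and Cct4 (9.81% ± 0.15 to 8.70% ± 0.25) were slightly lower. Cct8 was the subunit whose share overlapped between the groups, at 12.0% ± 0.36 and 11.8% ± 0.13.

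In all, the shares of 7 of 8 subunits did not overlap between Cadict and Ctrl, 3 higher and 4 lower. The exact permutation test (two-sided, 3 against 3) gave p = 0.1 for each of the 7, the smallest it allows, and 0.114 after adjustment over the 8 subunits, so this design cannot pass a threshold of 0.05. Since shares sum to a whole, a gain of some subunits lowers others, and the 8 values are not independent. The order of the subunits was the same in all 3 Cadict libraries (Cct3, Cct7, Cct2, Cct6a, Cct8, Cct5, Cct4, Tcp1), whereas Cct5 came first in all 3 Ctrl libraries. The coefficient of variation over the 8 subunits was 13.8% ± 0.69 in Ctrl, 14.3% ± 0.40 in Cu-Cys and 27.0% ± 0.56 in Cadict. The highest subunit was 2.19 ± 0.056 times the lowest in Cadict and 1.56 ± 0.047 times in Cu-Cys. In Cu-Cys 3 shares did not overlap with Ctrl: Cct2 was higher by 0.89 percentage points, while Tcp1 fell by 0.60 and Cct4 fell by 0.50 percentage points (adjusted p = 0.267 each, exact permutation test).

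**Figure D4:**
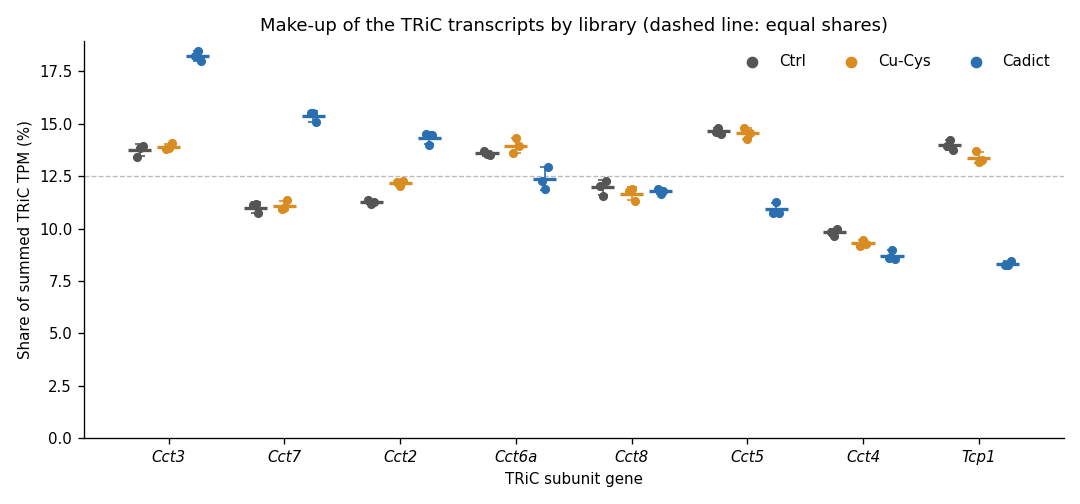
Share of each TRiC subunit gene in the summed TRiC TPM of its library (vertical axis, percent, from 0), for Ctrl, Cu-Cys and Cadict, with points for libraries, lines for means and bars for SD. In Cadict the points of Cct3, Cct7 and Cct2 lie above those of the other groups and those of Cct5 and Tcp1 below, with Tcp1 at 8.33% beside 14.0% in Ctrl.

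The barrel and the lid of the mitochondrial chaperonin came to similar transcript levels in Cadict. The ratio of Hspd1 to Hspe1 TPM was 2.42, 2.41 and 2.33 in the Ctrl libraries, 2.33, 2.02 and 2.12 in Cu-Cys and 1.04, 0.850 and 1.09 in Cadict. The Cadict libraries lay below all the others, and the Cu-Cys libraries lay just below Ctrl without overlap. The log2 ratio fell by 1.27 ± 0.11 (SE, n = 3) from Ctrl to Cadict and fell by 0.15 ± 0.063 from Ctrl to Cu-Cys (exact permutation test, p = 0.1 for each, the smallest possible). Hspe1 and Hspd1 lie in different length groups, whose median log2 fold changes in Cadict against Ctrl were 0.47 and −0.20. In Cu-Cys against Ctrl these medians were 0.10 and 0.01. The part of transcript length in the ratio was not tested. Hspe1 stood at 3582 ± 135 TPM in Cadict, 60th of 16509 genes and up from 203rd in Ctrl, and Hspd1 at 3560 ± 411, 62nd. Both also moved away from TRiC. Hspd1 was 3.05 ± 0.017 times the mean TRiC subunit in Ctrl and 4.49 ± 0.29 times in Cadict. For Hspe1 this ratio was 1.28 ± 0.033 in Ctrl, 1.58 ± 0.15 in Cu-Cys and 4.53 ± 0.36 in Cadict, without overlap between any of the groups.

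**Figure D5:**
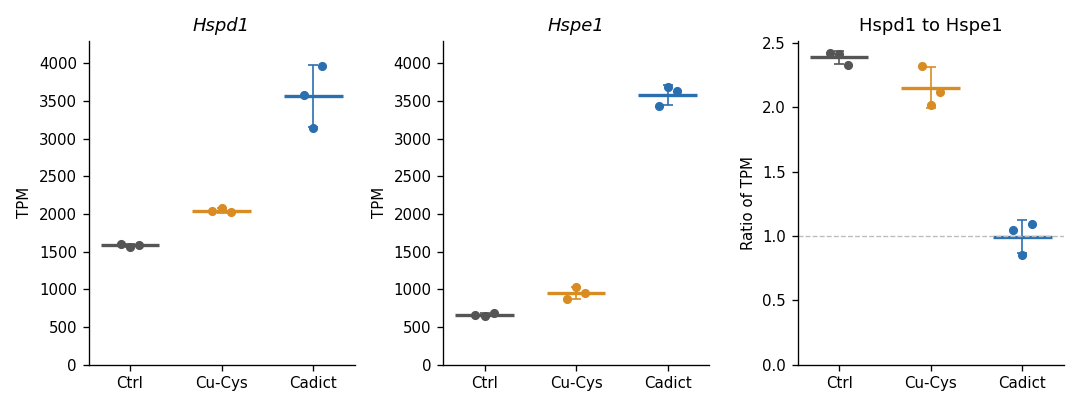
TPM of Hspd1 and of Hspe1 (left and middle, from 0) and their ratio within each library (right), by group, with points for libraries, lines for means and bars for SD. The ratio fell from 2.39 in Ctrl to 0.996 in Cadict, where the points lie around the dashed line of equal levels.

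Some reads of these genes could belong to other genes, and the strand setting of the counting is not given in the sources used here. In GENCODE M21 (GRCm38, a different build from the GRCm39 named in the submitters' notes), 42.1% of the 50-base stretches of Hspd1 and 22.8% of those of Hspe1 also occurred in transcripts of other genes, 9 and 5 of which were pseudogenes. For Cct2 and Cct5 this share was 0%. For Tcp1 it was 13.9%, with Acat3 and Acat2 sharing the most. Hspd1 and Hspe1 were each among the genes that shared the most stretches with the other. Exons of Tcp1 overlap those of Acat3 on the opposite strand over 571 bases of 2860, those of Cct6a overlap Psph over 452 of 2454, those of Cct7 overlap Pradc1 over 214 and those of Cct8 overlap Usp16 over 192. Psph, a serine synthesis enzyme, was itself at 35.9 CPM in Ctrl and 406 in Cadict, a log2 fold change of 3.50, beside 521 and 1793 CPM for Cct6a. Acat3 was at 0.29 and 2.57 CPM and Pradc1 at 5.76 and 15.7 CPM, and Usp16 at 39.8 and 31.3 CPM. Acat2, which shares stretches with Tcp1, was at 66.3 CPM in Ctrl and 26.6 in Cadict, a log2 fold change of −1.32. Tcp1 itself was at 589 and 1325 CPM. The part of these overlaps in the chaperonin values was not tested.

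The genes that work beside TRiC were counted next, from lists named in the methods. Prefoldin, which passes actin and tubulin to TRiC, had 6 of 6 genes higher in Cadict than in Ctrl with TMM scaling (median log2 fold change 1.36, against −0.13 over all genes). The largest changes were those of Pfdn2 (1.95 ± 0.073), Pfdn4 (1.79 ± 0.10) and Pfdn1 (1.78 ± 0.10). With library totals 3 prefoldin genes rose and 1 fell, and on the TPM scale 3 rose and 3 fell, with medians of 0.40 and 0.03. The median of all genes was −1.08 and −1.13 on these scales, and counts of the lists below carry that shift. The share of all genes rising or falling on these scales was not computed. In Cu-Cys 4 of 6 rose (median 0.33), against 22.6% of all genes. For comparison, the shortest length group of genes, which holds Hspe1, had a median of 0.47 in Cadict against Ctrl with TMM scaling. The part of transcript length in the prefoldin values was not tested. Of the phosducin-like regulators of TRiC 2 rose and 1 fell among 3 tested, led by Txndc9 at 1.84 ± 0.070, which kept its sign on all 5 scales. With library totals 1 rose and 1 fell, and on the TPM scale 1 rose and 2 fell. Of the 3 BBS proteins that resemble chaperonins, 1 rose and 2 fell, whereas with library totals 0 rose and 2 fell and on the TPM scale all 3 fell. Bbs12 was at −3.16 ± 0.10 and lower on every scale, while Mkks was at 1.00 ± 0.064 with TMM scaling and at −0.27 on the TPM scale. The TRiC paralog Cct6b had at most 3 counts in a Ctrl library and was not tested.

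The clients of TRiC moved in both directions. Of 15 actin and tubulin genes, 6 rose and 8 fell in Cadict against Ctrl (median −0.25), and the share that rose was close to the 40.6% of all genes. With library totals 3 rose and 11 fell, and on the TPM scale 2 rose and 13 fell. Their medians there were −1.205 and −1.44, beside −1.08 and −1.13 over all genes. Actr3, part of the actin-branching complex, was at 1.70 ± 0.049 and the α-tubulin Tuba1c at 1.50 ± 0.060, and both kept their sign on all 5 scales. The β-tubulin Tubb4b was at −1.46 ± 0.063 and Tubb5 at −1.01 ± 0.058, lower on every scale too. Near-identical tubulin genes share reads, so their single values are uncertain. Actb was at −0.02 ± 0.067 with TMM scaling and at −0.97 with library totals. Of 11 other clients, 5 rose and 4 fell (median −0.11), again near the share over all genes. With library totals 0 rose and 9 fell, and on the TPM scale all 11 fell. Their medians of −1.07 and −1.28 on these scales were near those of all genes. The largest changes among them were those of Fzr1 (−1.60 ± 0.081), Vhl (−1.58 ± 0.087) and Cdc20 (−1.22 ± 0.058), all lower on every scale. Among the 6 tubulin cofactors, which assemble the tubulin dimer after TRiC, 3 rose and 3 fell, with Tbce at 2.24 ± 0.066 and Tbcd at −1.40 ± 0.065, which kept their signs on all 5 scales, and Tbcb at 1.02 ± 0.071, which was at −0.26 on the TPM scale. With library totals 1 cofactor rose and 3 fell, and on the TPM scale 1 rose and 5 fell, with medians of −0.65 and −1.04.

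On the mitochondrial side, the partners of HSP60 were split. Of 11 genes of the mitochondrial HSP70 system and chaperones, 7 rose and 2 fell in Cadict against Ctrl (median 0.87). Among all genes 40.6% rose. Hspa9, the mitochondrial HSP70, was at 2.67 ± 0.047 and its nucleotide exchange factor Grpel1 at 2.26 ± 0.081. Both kept their sign on all 5 scales, as did Pam16, a regulator of the import motor, at 1.49 ± 0.12. Timm44, which anchors HSP70 at the import channel, was at −1.16 ± 0.069 and lower on every scale, and with library totals 3 genes of the list rose and 5 fell. On the TPM scale 2 rose and 8 fell. The median of this list was −0.09 with library totals and −0.45 on the TPM scale, above the −1.08 and −1.13 of all genes. In Cu-Cys 6 of 11 rose (median 0.25), against 22.6% of all genes. Of 8 mitochondrial proteases, 5 rose and 2 fell, beside the same 40.6% of all genes that rose. Lonp1 was at 2.47 ± 0.052, Clpp at 1.46 ± 0.10 and Clpx, which feeds proteins to Clpp, at −0.89 ± 0.085. These 3 kept their signs on all 5 scales. With library totals 2 proteases rose and 6 fell, and on the TPM scale 1 rose and 6 fell. The protease medians on these scales, −0.54 and −0.87, were also above those of all genes.

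The heat shock chaperones on the list were all higher in Cadict. All 16 rose over Ctrl, against 40.6% of all genes, with a median log2 fold change of 2.90. Their values overlapped those of the chaperonins, as Fkbp4 was at 1.82 and Hspa8 at 2.27, below Hspd1. All 16 rose on each of the 5 scales, with a median of 1.58 on the TPM scale. Hspa1b, an inducible HSP70, went from 19.55 CPM in Ctrl to 25794 in Cadict. Its near-identical copy Hspa1a had at most 1.27 counts in a Ctrl library and was at 1343 CPM in Cadict. With Ctrl set at 3 counts per library, a limit for counting error only, that is at least 10323-fold higher. Such copies share reads, so how the reads were divided between Hspa1a and Hspa1b is uncertain, which this bound does not cover. The 2 genes with Ctrl counts within 3 per library, Hspa1a and Hspb1, stay above the list median at their bounds (log2 13.3 and 7.31). Setting them to these bounds therefore cannot move that median. Hsph1, which reloads HSP70, was at 4.76 ± 0.055. The list took 1.85 to 1.87% of the counts in Ctrl, 2.22 to 2.29% in Cu-Cys and 6.94 to 7.65% in Cadict. In Cu-Cys 14 of 16 rose (median 0.41), against 22.6% of all genes. Among 8 transcription factors, 6 rose and 1 fell in Cadict with TMM scaling. With library totals 2 of them rose and 5 fell, and on the TPM scale 2 rose and 6 fell. Their medians there were −0.27 and −0.62, beside −1.08 and −1.13 over all genes. Ddit3 was at 2.59 ± 0.097 and Cebpb at 1.81 ± 0.14, both higher on every scale, and Myc was at −1.09 ± 0.080 and lower on every scale. Hsf1, the main heat shock factor, was at 0.31 ± 0.052 with TMM scaling. It was below 0 with library totals (−0.64), FPKM (−0.60) and TPM (−0.95). Hsf2 was at 1.09 ± 0.069 with TMM scaling and below 0 on the TPM scale alone, at −0.27.

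The genes closest to the TRiC median over the 9 libraries, by distance of their log2 CPM from the Ctrl mean among 8541 other genes, were Psmc1, Psmd11, Rwdd4a, Eif2s1 and Psmd14. Psmc1, Psmd11 and Psmd14 encode proteasome subunits and Eif2s1 encodes a subunit of the initiation factor eIF2. Their log2 fold changes in Cadict ran from 1.79 to 1.89, and their distances of 0.095 to 0.15 were at or below that of Cct8 (0.15), the nearest member. The 5 genes closest to the mean of Hspd1 and Hspe1 were Adrm1, a proteasome ubiquitin receptor, Aig1, Tnfrsf12a and the proton pump subunits Atp6v0b and Atp6v1d. They were at 3.04 to 3.22 in Cadict and at 0.52 to 0.74 in Cu-Cys, at distances of 0.217 to 0.302. These distances were chosen as a description of the pattern and were not tested.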

How the data were processed

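The authors deposited a single table with an expected count, an FPKM and a TPM value per gene and library, made with HISAT2 2.1.0, Bowtie2 2.3.4.3 and RSEM 1.3.1 per the submitters' processing notes. The expected counts that the authors deposited are not normalized. The deposited TPM and FPKM are divided by transcript length and by library. Columns marked CC were taken as Cu-Cys by its initials and CCGE as Cadict, inferred from its components. The labels name a column kit and DNA nanoballs, the study's methods TRIzol and Illumina.

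Expected counts were rounded and fitted in R 4.3.3 with edgeR 4.0.16 (filterByExpr, TMM, 1 quasi-likelihood model of 3 groups, Benjamini-Hochberg over 11949 genes). CPM are TMM-scaled. Ratios and shares used TPM within libraries and the exact permutation test. The procedure was tested on simulated data. A count of 0 allows 3 counts, which covers counting error only. Alternatives used DESeq2 1.42.0 and limma 3.58.1. Listed genes were all counted, and those with the 3 largest changes at a mean of at least 10 CPM were named, with others whose role needed naming. The lists were prefoldin, phosducin-like regulators, BBS proteins, TRiC paralogs, tubulin cofactors, actin and tubulin, other clients, mitochondrial HSP70 system, mitochondrial proteases, heat shock chaperones and transcription factors. The members and lists were chosen with earlier results of these data known. Same-numbered libraries did not deviate together (correlations −0.197 to 0.167 over 8551 genes), so numbers were not used as pairs.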

Additional observations from a re-analysis of the deposited data

How the results depend on the processing

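Of 636 values recomputed under the alternatives, 613 kept their direction and their side of the threshold or moved by less than the limit. Leaving out each library in turn, DESeq2's size factors, DESeq2's Wald test, no filter on low counts and a minimum of 10 counts in every library changed no count of rising, falling or called chaperonin genes, and with the replicate block 10 genes rose in each comparison. Without 1 library the number of TRiC shares that did not overlap was 7 or 8 in Cadict and 3 or 4 in Cu-Cys against Ctrl. The scale set the others. On the TPM scale 9 genes rose in Cadict and in Cu-Cys against Ctrl, and 8 in Cadict against Cu-Cys. In Cadict against Ctrl, 5 genes in place of 10 were called higher with library totals and on the FPKM scale, and 4 on the TPM scale with a pseudocount of 1 or 0.1, where 1 gene fell, Tcp1 (−0.14 with either pseudocount). In Cadict against Cu-Cys, 4 genes in place of 9 were called higher with library totals and on the FPKM scale and 1 on the TPM scale, where 1 gene fell. There Tcp1 was at −0.0088 with library totals, −0.016 with FPKM and −0.29 with TPM at either pseudocount, and Cct5 at −0.0185 with TPM. In Cu-Cys against Ctrl, 10 genes in place of 0 passed an adjusted p of 0.001 (edgeR) with no limit on the fold. The share of all genes that passed in this way was not computed, and 22.6% of all genes rose there at an adjusted p of at most 0.05. Nor was the share of all tested genes called higher with library totals, FPKM or TPM computed in any comparison. Over all genes called in Cadict against Ctrl, 43.3% were higher with TMM, 48.3% with DESeq2's size factors, 11.9% with library totals, 11.0% with FPKM and 5.67% with TPM. Which scale is nearest to transcripts per cell was not tested. The scales for the gene lists were chosen after seeing the data. Groups of 3 limit the exact test to p = 0.1.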
